A study of Mus musculus with 28 samples.

Results

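Primary tumors (PT) were compared with normal mammary gland (NMG) across all genes of a mouse microarray, using the samples whose source name was primary tumor (11 arrays) or normal mammary gland (3 arrays). These were 14 of the 28 samples of the series. The PT were implants of JygMC(A), a carcinoma line of mouse mammary origin with a GFP and luciferase reporter, for which 50000 cells were placed in the gland of pair 4 of female Balb/C nude mice aged 8 weeks. They were removed on day 30 according to the labels, and on days 20 to 30 according to the methods. NMG was whole gland of 3 healthy Balb/C nude mice aged 6 to 8 weeks that had received no cells. The hosts and the donors of normal tissue were athymic, so both groups lacked a normal T cell compartment. The other samples served as a background to the comparison. They were 9 lung metastases (LungMets) collected on day 50, 3 normal lungs (NL), and 1 array each of cultured JygMC(A) cells, from a monolayer and from 3D spheres. The PT came from 1 line. For frozen blocks used in microdissection, the methods take 1 or 2 tumor fragments from each of 8 mice and normal tissue from 3. They give no mouse count for the arrays, whose titles number the 11 PT as biological replicates. PT arrays may therefore share a mouse, which the labels do not settle, and p-values measure the spread between these samples.

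A carcinoma grown in the mammary gland holds tumor cells together with host fibroblasts, vessels and immune cells. A resting gland is mostly fat, crossed by ducts with an inner luminal and an outer basal layer, and it holds vessels, fibroblasts and lymphoid tissue. RNA of whole tissue mixes all of these cells, so that fewer cells of a type and less RNA per cell cannot be told apart. The cell line arrays show which transcripts JygMC(A) cells make in culture, where no host cell is present. They were single arrays, their RNA had been purified with another kit than that of the tissues, and no test rests on them.

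Each gene was read from 1 probe set on the log2 scale, in which 1 unit is a 2-fold difference, and array medians lay between 5.00 and 5.18. A limma fit with 1 mean per group was used, and a gene was called at a Benjamini-Hochberg adjusted p below 0.05 over all 18193 genes. PT replicate 5 stood apart. It correlated at 0.968 with the mean of the other PT and at 0.989 with the mean of the LungMets, and its nearest array was LungMets replicate 5 (r = 0.9955, the highest of any pair of tissue arrays). The mean of 17 lung epithelium markers was 9.89 in PT replicate 5, against 5.10 to 6.79 in the other PT and 5.41 to 7.06 in NMG. LungMets replicate 9 was the converse, with r = 0.983 to PT and 0.963 to the mean of the other LungMets. Both arrays thus went against their labels, and whether the labels of the pair had been exchanged was not tested. The labels were kept, PT replicate 5 below means the array labelled so, and results that rest on it are given without it. PT arrays fell into 2 date batches of 4 and 7 arrays by their labels, and 0 genes were called between them by limma (116 at an unadjusted p below 0.05). Without PT replicate 5 there were 2. All NMG arrays shared a date of their own, so for NMG the date batch and the tissue cannot be told apart.

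Of the 18193 genes, 4851 (26.7%) were higher in PT and 3820 (21.0%) were lower, and the median log2 difference over all genes was 0.09. Without PT replicate 5 the counts were 4905 and 3828. Every PT array lay above every NMG array at 3324 genes (18.3% of all) and below at 2908 (16.0%). Over 2-fold differences were found at 1221 genes higher in PT (6.71%) and at 1916 lower (10.5%). When each array was centred on its own median, all differences moved up by 0.16, and 7495 genes were higher and 3081 lower. The share of higher genes among those called was then 70.9%, against 55.9% as deposited.

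The rise of Notch4 was the largest. Notch4 encodes a cell surface receptor that is known from mouse mammary tumors as a target of insertion by mouse mammary tumor virus. Its level was 13.19, 13.34 and 13.71 in PT (lowest, median and highest of 11), against 3.74, 3.17 and 4.32 in the NMG replicates. The log2 difference was 9.68 (SE 0.163, adjusted p = 5.24e-24, limma). Monolayer cells were at 13.3 and spheres at 13.16, inside or just below the PT range, and PT arrays varied little (SD 0.19). The other probe sets of the gene gave smaller values. One averaged 10.21 in PT and 6.18 in NMG, with 7.08 in the monolayer and 5.13 in spheres. The remaining one averaged 5.53 in PT and 3.89 in NMG, so the size of the rise depended on the probe set while its direction did not. LungMets averaged 13.43 and NL 4.40 on the main probe set.

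Of the 15 largest rises, 4 are genes known from cartilage matrix, a grouping made after the values were seen and with no list of such genes behind it. Col9a2, Cytl1 and Cnmd, which were among the rises with no cell line array above NMG, are given beside them. Col2a1, the fibrillar collagen of cartilage, was at 7.57, 11.86 and 12.41 in PT (lowest, median, highest), against 4.04, 4.18 and 3.66 in NMG, a difference of 7.15 (SE 0.859, adjusted p = 2.37e-07). The lowest PT value was that of replicate 5, without which the difference was 7.50. Col11a1, which encodes a minor fibrillar collagen, rose by 6.63 (SE 0.565), and Col9a1, a collagen on the surface of cartilage fibrils, rose by 5.87 (SE 0.85). Snorc, a proteoglycan of cartilage, rose by 5.09 (SE 0.654), Col9a2 by 3.78 (SE 0.408) and Cytl1, a secreted protein made by chondrocytes, by 3.06 (SE 0.55). Cnmd, which encodes chondromodulin, rose by 4.80 (SE 1.34), although its lowest PT value, 4.93, lay within the NMG range of 3.51 to 5.16. JygMC(A) cells did not carry all of these transcripts alike. Col2a1 was at 9.50 in the monolayer and 6.56 in spheres, and Col11a1 was at 9.96 and 5.00. Col9a2, Cytl1 and Cnmd were at or below the highest NMG array on both cell line arrays, with Cnmd at 2.74 and 3.02. The lung comparison shares no array with PT against NMG, but it comes from the same fit. For frozen blocks, the methods take normal glands and lungs from 3 mice and tumors and metastases from 8. Animals may be shared among the arrays too. In the lung comparison LungMets were higher than NL for Col2a1 (4.61), Col11a1 (6.47), Col9a1 (6.70), Snorc (5.50), Col9a2 (2.90) and Cnmd (5.79). Cytl1 was not called (-1.28, adjusted p = 0.066, limma).

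The other genes among the 15 largest rises had varied roles. Foxd1, a forkhead transcription factor, was at 8.10, 8.69 and 9.08 in PT, against 3.52, 3.51 and 2.99 in NMG (difference 5.36, SE 0.355). Slc6a15, a transporter of neutral amino acids, rose by 5.05 (SE 0.467) and Mid1, a microtubule-associated ubiquitin ligase, by 5.29 (SE 0.252). Both cell line arrays were at 7.86 or more for Foxd1 and at 8.50 or more for Slc6a15, within or near the PT range. For Mid1 the difference ran between 0.13 and 5.29 over 3 probe sets. Ptgs2, the inducible cyclooxygenase, rose by 4.66 (SE 0.836), and its PT values of 5.39 to 9.80 were all below those of the monolayer (10.92) and spheres (10.82). Ptprz1, a receptor phosphatase best known in glia, was at 5.68, 8.30 and 10.88 in PT, against 2.61, 2.86 and 2.95 in NMG. Its cell line values were 2.93 and 3.15, the sphere value just above NMG. Mmp13, a collagenase, was likewise at 3.12 and 3.03 in the cell line and at 3.51 to 10.03 in PT. Capn6, a calpain without protease activity that binds microtubules, rose by 4.49 (SE 0.406). Fbp2, the muscle isoform of the gluconeogenic enzyme fructose bisphosphatase, rose by 4.87 (SE 0.793). The transcripts C130071C03Rik and BC006965 rose by 5.02 and 4.85, and for BC006965 the other 2 probe sets had the opposite sign, the lowest at -1.44, and the call was lost with the mean of its probe sets.

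**Figure D1:**
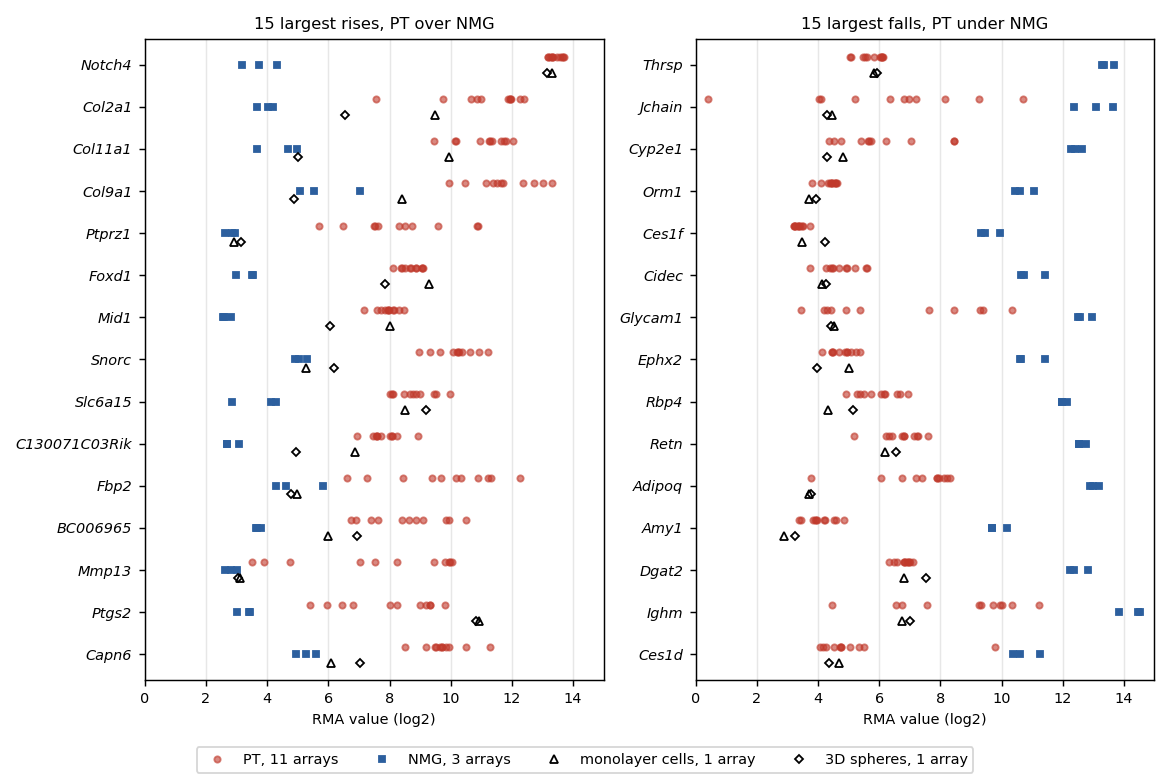
RMA value (log2) of the 15 genes with the largest rise (left) and the 15 with the largest fall (right) among called genes for which all PT lay outside the NMG range, with 1 point per PT, NMG, monolayer and sphere array. Notch4 sits at 13.19 to 13.71 in PT and at 3.17 to 4.32 in NMG, while for Ptprz1 and Mmp13 the cell line points lie near those of NMG and the PT points are spread above them.

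Genes that rose over 2-fold were divided by the cell line arrays, to show for which of them JygMC(A) cells can be a source. In 388 of 1221 genes (31.8%) both cell line arrays were at least 1 log2 unit above the highest NMG array, against 3.92% of all genes. Both readings share the NMG arrays. In 96 genes (7.86%) neither cell line array was above the highest NMG array. The other 737 (60.4%) lay between. Every PT array was above every NMG array at 347 of the 388 genes, at 669 of the 737 and at 50 of the 96. The median SD among PT was 0.34, 0.34 and 0.81 in these 3 classes, a description with no test. LungMets were higher than NL at 282 of the 388 (72.7%), 575 of the 737 (78%) and 50 of the 96 (52.1%). The share was 74.3% of the 1221 and 23.8% of all genes, so the class with both cell line arrays high was not above the class between. Without NMG replicate 3 the class with no cell line array above NMG held 51 genes in place of 96.

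**Figure D2:**
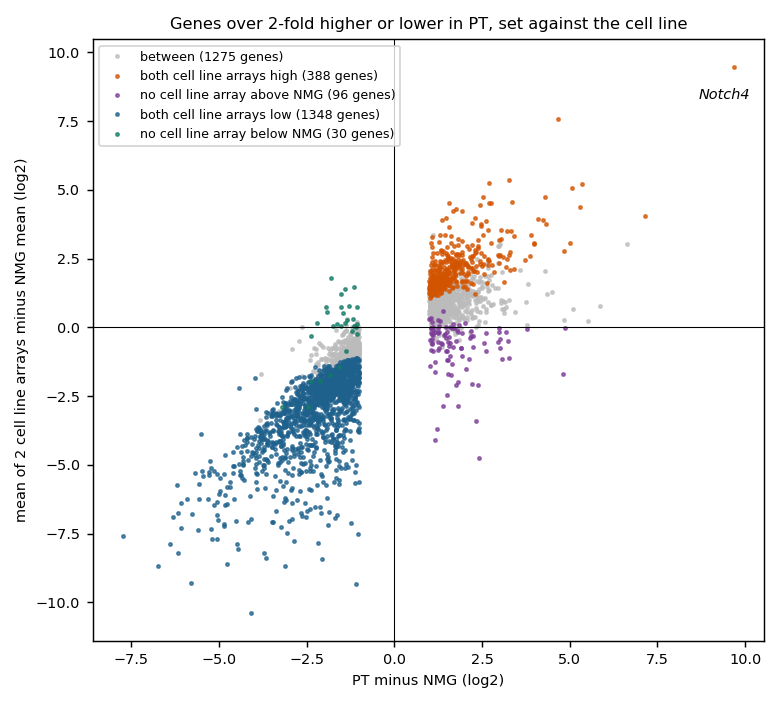
Each point is a gene over 2-fold higher or lower in PT, with PT minus NMG (log2) on the x axis, the mean of both cell line arrays minus NMG (log2) on the y axis, and colours for the cell line classes. The 388 genes with both cell line arrays high lie at the upper right with Notch4 at the far end, the 96 with none above NMG lie lower on the right, and the 1348 with both low fill the lower left.

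Of the class with both cell line arrays high, Notch4, Col2a1, Foxd1, Mid1, Slc6a15, C130071C03Rik, BC006965 and Ptgs2 are described above. Xaf1, an interferon-inducible gene of cell death, was next, at 8.00 to 9.59 in PT, against 4.50 to 4.64 in NMG (difference 4.32, SE 0.281). Its cell line values were 7.78 and 8.86. A further probe set of Xaf1 gave the opposite sign, with means of 6.65 in PT and 8.37 in NMG. Tnnt2, cardiac troponin T, was at 5.58, 8.91 and 9.82 in PT, against 3.88, 3.72 and 3.87 in NMG (difference 4.30, SE 0.919), and at 9.35 and 7.76 in the cell line. The 3 tumors with the lowest Tnnt2 were PT replicates 6 (5.58), 5 (5.65) and 1 (6.28).

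Of the class with no cell line array above NMG, Fbp2 and Cnmd led, followed by Col9a2. The class is set against NMG and does not show that the cell line lacked a transcript. Atp6v1c2, a subunit of the proton pump of vesicles, rose by 3.26 (SE 0.88, adjusted p = 0.00359), with 6.67, 10.05 and 11.97 in PT, against 7.91, 6.86 and 4.98 in NMG. The groups overlapped, as they did for Rps6ka6, a ribosomal S6 kinase (5.76 to 11.04 in PT, against 4.04 to 6.49 in NMG, difference 3.25, SE 1.10). Both calls were lost without NMG replicate 3. Lrrn3, a leucine-rich repeat protein of neurons, rose by 3.17 (SE 0.749), and its lowest PT value (4.84) was just above the highest NMG value (4.81). Gna14, a G protein subunit, was at 6.52 to 9.47 in PT, against 4.88 to 5.56 in NMG. Car12, a carbonic anhydrase of the cell surface, was at 5.91 to 10.67 in PT, against 4.59 to 5.12 in NMG. Calml3, a calmodulin-like protein of epithelia, was at 6.55 to 8.57 in PT, against 4.45 to 4.87 in NMG. For all of these the monolayer and sphere values lay between 2.74 and 5.52.

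**Figure D3:**
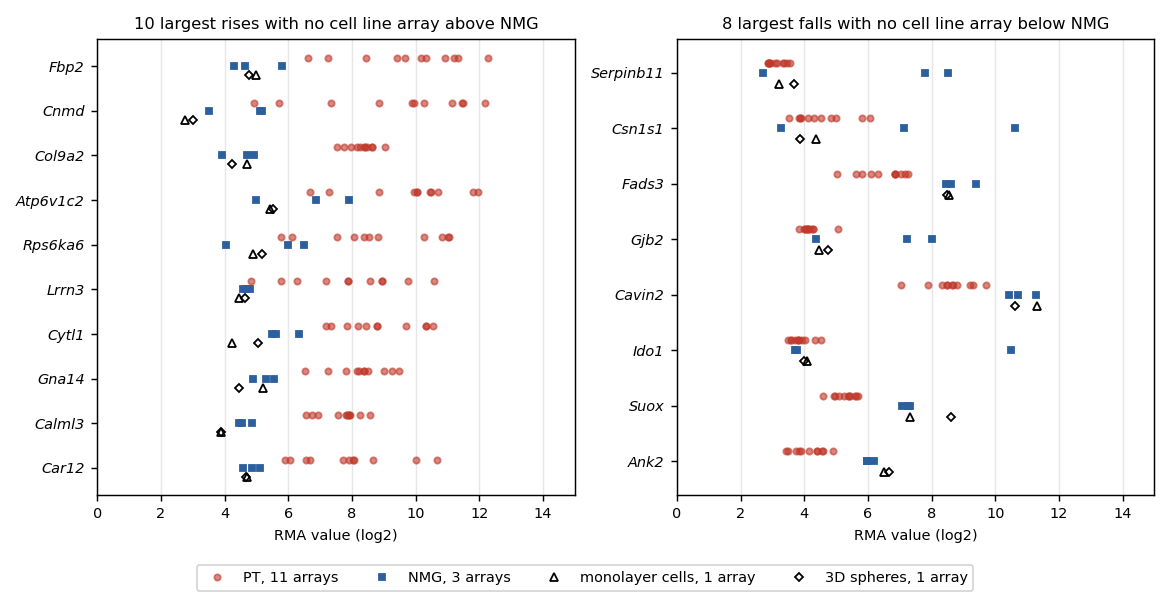
RMA value (log2) of the 10 largest rises with no cell line array above NMG (left) and the 8 largest falls with no cell line array below NMG (right), with 1 point per PT, NMG, monolayer and sphere array. The PT points of Fbp2 span 6.61 to 12.27, and Ido1 has a single NMG point at 10.49 far from all others.

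Genes that fell over 2-fold mirrored these classes with other proportions. In 1348 of 1916 (70.4%) both cell line arrays were at least 1 log2 unit below the lowest NMG array, against 10.3% of all genes. In 30 (1.57%) neither cell line array was below NMG, and 538 (28.1%) lay between. The 30 included genes that JygMC(A) cells carried at the NMG level and PT did not. Ank2, a membrane anchor protein, was at 3.44 to 4.91 in PT, against 6.18, 5.97 and 5.98 in NMG, and at 6.51 and 6.66 in the cell line. A further Ank2 probe set also fell (-2.10), while its others, at PT means of 2.51 to 3.73, differed by 0.06 to 0.39. Suox, sulfite oxidase, was at 4.59 to 5.69 in PT, against 7.06 to 7.31 in NMG, and at 7.31 and 8.62 in the cell line. Fads3, a member of the fatty acid desaturase family, and Cavin2, a coat protein of caveolae, fell by 2.38 and 2.21, with cell line values of 8.47 or more and 10.62 or more. Each of these 4 genes fell in all 11 PT. In the rest of the named genes of this class the NMG arrays differed among themselves. Serpinb11 was at 7.78 and 8.53 in NMG replicates 1 and 2 but 2.69 in replicate 3, and Gjb2, a gap junction protein, was at 8.02, 7.23 and 4.38. Both kept their call under every alternative that held them. Their place in the class rested on the lowest NMG array, replicate 3. Ido1, which degrades tryptophan, was at 3.50 to 4.54 in PT, against 3.76, 3.71 and 10.49 in NMG. Without NMG replicate 3 its difference was 0.14 (adjusted p = 0.694), and the class held 14 genes.

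Genes of cell division rose together. All 23 measured members of the mitosis list and all 27 of the DNA replication list were higher in PT, with median log2 differences of 1.79 and 1.21, where 26.7% of all genes were higher. The members were chosen as textbook genes of each process, and many of their promoters carry known cell cycle motifs, shown here because the genes moved together. In RefSeq promoters (build GRCm38.p6, 250 bases before to 50 after the start, both strands), TTTGAA or TTCGAA, the letters of the cell cycle homology region, was present in 15 of 19 mitosis genes with a promoter (78.9%) and in 21.7% of all 27025 genes. CCAAT was present in 15 of 19 (78.9%) and in 41.1% of all, and both were present in 14 (73.7%) and in 8.61%. The letters TTTCCCGC, TTTGGCGC or TTTCGCGC of E2F sites were present in 10 of 23 DNA replication genes (43.5%) and in 2.12% of all. A match is a description of the sequence and not a bound site. The 250 bases before the start, written 5′ to 3′ along the gene, are given for Cdc20 (chr4:118437344-118437593, minus strand), Ccnb2 (chr9:70421555-70421804, minus strand), Cdk1 (chr10:69352913-69353162, minus strand), Orc1 (chr4:108579204-108579453, plus strand) and Mcm6 (chr1:128359706-128359955, minus strand). Capitals mark the cell cycle homology region and CCAAT letters in the first 3 and the E2F letters in the other 2.
Cdc20: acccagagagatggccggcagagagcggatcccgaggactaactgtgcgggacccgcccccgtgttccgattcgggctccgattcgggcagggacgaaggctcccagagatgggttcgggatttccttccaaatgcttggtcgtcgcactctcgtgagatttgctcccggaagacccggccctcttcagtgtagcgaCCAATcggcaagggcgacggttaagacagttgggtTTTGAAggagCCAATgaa
Ccnb2: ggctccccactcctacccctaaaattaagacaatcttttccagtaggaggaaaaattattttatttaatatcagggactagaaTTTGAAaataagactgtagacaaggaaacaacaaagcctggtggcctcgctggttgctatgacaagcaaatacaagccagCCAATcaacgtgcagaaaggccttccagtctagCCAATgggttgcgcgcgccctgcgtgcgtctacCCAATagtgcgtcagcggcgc
Cdk1: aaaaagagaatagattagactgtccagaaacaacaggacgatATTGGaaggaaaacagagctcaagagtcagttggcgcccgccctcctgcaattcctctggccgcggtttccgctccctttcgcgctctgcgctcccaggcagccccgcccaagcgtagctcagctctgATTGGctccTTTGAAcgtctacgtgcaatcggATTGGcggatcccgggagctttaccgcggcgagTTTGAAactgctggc
Orc1: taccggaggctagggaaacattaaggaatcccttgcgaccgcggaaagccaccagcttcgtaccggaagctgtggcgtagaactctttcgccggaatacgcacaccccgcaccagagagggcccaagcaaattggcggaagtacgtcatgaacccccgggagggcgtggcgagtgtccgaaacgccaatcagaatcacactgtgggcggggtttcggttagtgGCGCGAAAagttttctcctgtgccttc
Mcm6: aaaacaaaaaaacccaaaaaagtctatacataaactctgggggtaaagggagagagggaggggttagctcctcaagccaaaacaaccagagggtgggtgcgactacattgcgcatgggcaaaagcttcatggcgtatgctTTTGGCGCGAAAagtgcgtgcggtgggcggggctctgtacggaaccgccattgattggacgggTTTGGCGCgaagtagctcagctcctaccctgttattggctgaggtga

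Cdc20, an activator of the anaphase-promoting complex, was at 11.45, 11.65 and 11.83 in PT, against 9.34, 10.23 and 7.80 in NMG (difference 2.51, SE 0.264, adjusted p = 3.03e-08). Cdk1, Ccnb2 and Mcm6 were chosen after their values were seen. Cdk1, the kinase that drives entry into mitosis, averaged 2.40 higher in PT (SE 0.307), and Ccnb2, a cyclin that binds it, 1.91 higher (SE 0.357). The largest rise of the mitosis list was that of Kif20a, a kinesin of cytokinesis (3.07, SE 0.361), followed by the checkpoint kinase Bub1 (2.67, SE 0.388) and the ubiquitin-conjugating enzyme Ube2c (2.66, SE 0.434). Of the DNA replication list, Orc1, a subunit of the origin recognition complex, was at 6.42, 6.70 and 7.25 in PT, against 4.76, 5.54 and 4.55 in NMG (difference 1.81, SE 0.213). Mcm6, a subunit of the replicative helicase, rose by 1.69 (SE 0.254), the thymidine kinase Tk1 by 2.30 (SE 0.352), and the clamp loader subunits Rfc3 and Rfc4 by 1.93 (SE 0.188) and 1.85 (SE 0.337). Every PT array lay above every NMG array at 22 of 23 mitosis genes and 15 of 27 replication genes. The NMG arrays differed among themselves. The mean of the mitosis list was 8.88 to 9.53 in PT, against 7.02, 8.22 and 6.14 in NMG replicates 1, 2 and 3. Without replicate 2 the mitosis median was 2.46, and without replicate 3 it was 1.36. Without replicate 3, 18 of the 27 replication genes were called. The monolayer list mean was 9.58 and that of spheres was 6.49, below NMG replicate 1, and no member was high on both cell line arrays.

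**Figure D4:**
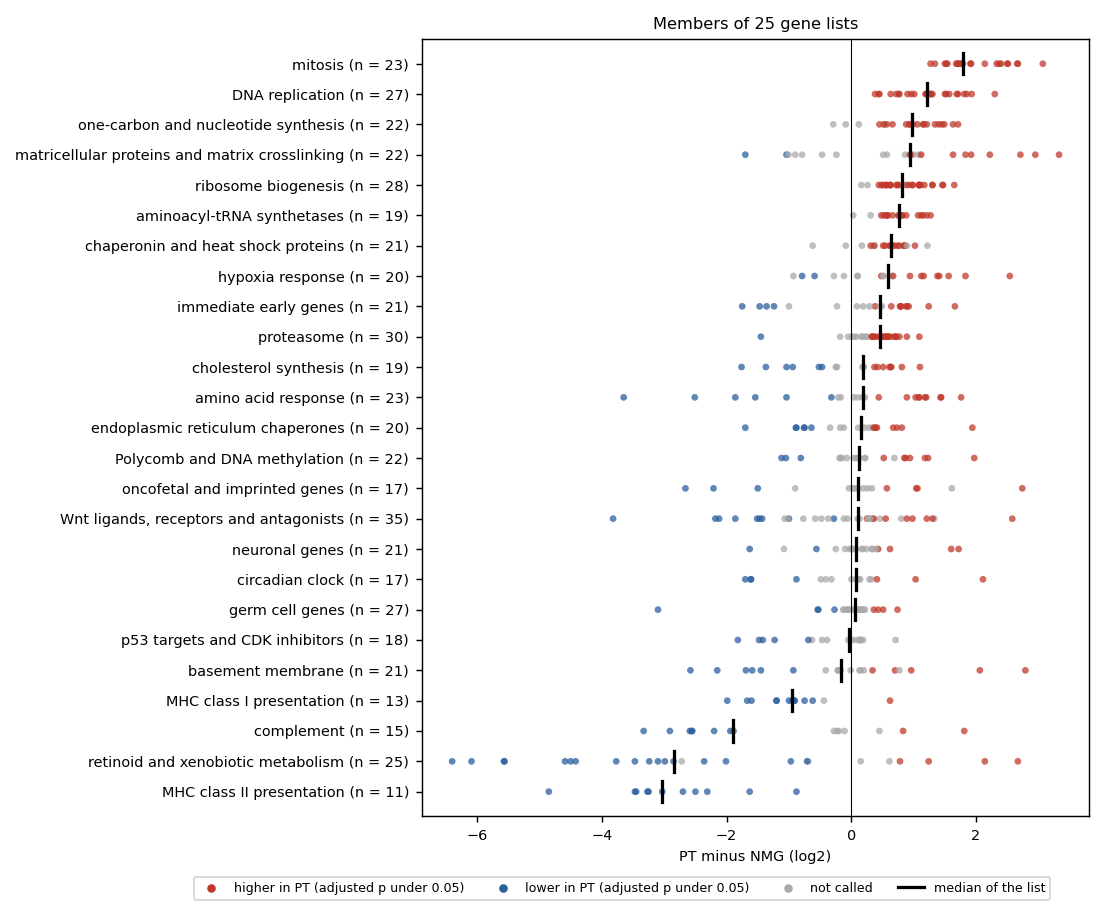
PT minus NMG (log2) for each member of 25 gene lists, coloured by call, with a bar at the list median. All 23 mitosis and all 27 DNA replication members lie above 0, and all 11 MHC class II members lie below 0.

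Lists of protein and nucleotide production rose as well, where 26.7% of all genes were higher and 21.0% lower. Of 28 ribosome biogenesis genes, 26 were higher in PT and 0 lower (median 0.82), of 19 aminoacyl-tRNA synthetases 17 and 0 (median 0.77), and of 22 genes of one-carbon and nucleotide synthesis 18 and 0 (median 0.97). Nolc1, a nucleolar phosphoprotein, was at 9.16 to 10.06 in PT, against 7.73 to 8.27 in NMG (difference 1.65, SE 0.161). Dkc1 and Nhp2, partners in the particles that modify ribosomal RNA, rose by 1.47 and 1.46, and Nop58, of the methylating particles, rose by 1.30. Nars, which charges asparagine tRNA, was at 9.88 to 10.23 in PT, against 8.67 to 8.94 in NMG (difference 1.27, SE 0.0933), and Sars, Farsb and Iars rose by 1.21, 1.15 and 1.12. Mthfd2, a mitochondrial folate enzyme, rose by 1.71 (SE 0.203), the purine enzyme Paics by 1.63 (SE 0.135), the serine enzyme Shmt2 by 1.49 (SE 0.20) and the CTP synthase Ctps by 1.45 (SE 0.154). Spheres kept these levels, unlike those of mitosis. The median sphere value was 1.23 above the NMG mean for ribosome biogenesis and 1.56 above it for the synthetases, against -0.72 for mitosis.

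Chaperonin and proteasome genes rose by less. Of 21 chaperonin and heat shock genes, 15 were higher and 0 lower (median 0.64), and Tcp1, Cct8, Cct5 and Cct7, subunits of the cytosolic chaperonin, rose by 1.02, 0.86, 0.85 and 0.84. Of 30 proteasome genes, 20 were higher and 1 lower (median 0.46). Psmd7, Psma7 and Psmb7 rose by 1.09, 0.89 and 0.77, and without NMG replicate 1 Psmb7 was at 0.53 and not called. Psmc5, an ATPase of the proteasome cap, fell by 1.45 (SE 0.168), with 6.92 to 8.02 in PT, against 9.04 to 9.24 in NMG. The lists of stress and sterol genes moved in both directions, as did all genes, of which 26.7% were higher and 21.0% lower. Among 23 amino acid response genes, 10 were higher and 6 lower (median 0.19). Aldh18a1, an enzyme of proline synthesis, rose by 1.76 (SE 0.173), while the glutamine transporter Slc1a5 was at 5.63 to 6.52 in PT, against 9.34 to 10.36 in NMG, and fell by 3.65 (SE 0.251). The secreted glycoprotein Stc2 and the transaminase Gpt2 fell by 2.51 and 1.86. Among 20 endoplasmic reticulum chaperones, 7 were higher and 6 lower (median 0.16). The paralogous oxidases Ero1a and Ero1b moved apart, Ero1a by 1.94 (SE 0.394) and Ero1b by -1.70 (SE 0.216). Dnajb9 and Sel1l fell by 0.89 and 0.88. Among 19 cholesterol synthesis genes, 8 were higher and 6 lower (median 0.19). The demethylase Cyp51 rose by 1.10, and Insig1, which holds back the sterol pathway, Tm7sf2 and Pmvk fell by 1.76, 1.37 and 1.04.

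Of 20 hypoxia response genes, 10 were higher and 2 lower (median 0.58), where 26.7% of all genes were higher and 21.0% lower. Car9, a carbonic anhydrase and a standard marker of low oxygen, was at 5.77, 6.69 and 7.26 in PT, against 4.00, 4.03 and 3.95 in NMG (difference 2.54, SE 0.321, adjusted p = 5.23e-07). All PT exceeded all NMG, and the cell line, at 4.47 and 5.08, lay below all PT. Egln3, an oxygen-sensing hydroxylase, had a similar order, with 8.30 to 10.13 in PT, against 7.01 to 7.35 in NMG, and 6.77 and 6.91 in the cell line. Plod2, a lysyl hydroxylase of collagen, rose by 1.83 (SE 0.606; not called without NMG replicate 1, 1.76), and Pgk1, a glycolytic enzyme, by 1.41 (SE 0.138). Aldoa and Hk2, also glycolytic, fell by 0.79 and 0.59 and are named because only 2 members were lower, a choice made after their values were seen. The core of the hypoxia response element, ACGTG, was present in 12 of 17 promoters of the list (70.6%) and in 21.8% of all genes, read in the same way. The list was made of known genes of this response, so the share is no separate evidence. Of the 12, Aldoa and Hk2 were lower, Vegfa, Bnip3 and Ldha were not called, and the others were higher. The 250 bases before the start of Car9 (chr4:43506776-43507025, plus strand) are shown because they hold this core, in capitals on the opposite strand, 18 bases from the start.
Car9: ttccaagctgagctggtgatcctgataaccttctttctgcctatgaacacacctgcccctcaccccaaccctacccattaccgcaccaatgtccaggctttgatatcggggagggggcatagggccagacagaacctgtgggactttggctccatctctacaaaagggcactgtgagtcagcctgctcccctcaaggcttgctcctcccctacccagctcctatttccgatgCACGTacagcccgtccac

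Matrix genes moved in both directions, beside 26.7% of all genes higher and 21.0% lower. Of 22 genes of matricellular proteins and matrix crosslinking, 10 were higher and 2 lower (median 0.94). All PT lay above all NMG at 5 of the 22, and the tumors differed. The list mean was 7.90, 7.81 and 7.66 in PT replicates 5, 6 and 10, below the 8.06 to 8.11 of NMG, and 9.74 in replicate 8. Ccn2, connective tissue growth factor, was at 8.21, 11.25 and 11.72 in PT, against 7.50, 6.96 and 7.59 in NMG (difference 3.33, SE 0.53), and the cell line was at 11.2 and 10.5. Loxl3 and Loxl4, lysyl oxidases that crosslink collagen, rose by 2.95 (SE 0.701) and 2.71 (SE 0.848), and Tnc, tenascin C, by 2.22 (SE 0.623). The 2 that fell were Vcan (-1.70) and Loxl1 (-1.04), named after their values were seen. Of 21 basement membrane genes, 5 were higher and 6 lower (median -0.17). This is near the shares of all genes, so the members are given singly and not as a shift of the list. The paired collagen genes Col4a6 and Col4a5 were at 6.83 to 7.97 and 8.79 to 10.05 in PT, against 4.43 to 4.93 and 6.31 to 8.27 in NMG, and rose by 2.79 (SE 0.189) and 2.06 (SE 0.274). The laminin chains Lama2 and Lama3 fell by 2.58 (SE 0.314) and 2.15 (SE 0.471). The other 3 that rose, named after their values were seen, were Agrn (0.96), Lamb3 (0.70) and Hspg2 (0.34).

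Fibroblast lists split. Of 15 markers of resting fibroblasts, 0 were higher and 10 lower (median -1.66), and all PT lay below all NMG at 10. Dcn, decorin, was at 7.99, 9.91 and 10.28 in PT, against 12.11, 12.38 and 12.93 in NMG (difference -2.85, SE 0.447), and Clec3b, Dpt and Gsn fell by 3.15, 2.66 and 2.55. Of 13 markers of activated fibroblasts, 6 were higher and 3 lower (median 1.02). Besides Col11a1 and Mmp13, Col12a1 was at 6.20, 10.02 and 11.20 in PT, against 5.70, 5.78 and 5.48 in NMG (difference 3.79, SE 0.823), and Inhba, a subunit of activin, rose by 3.22 (SE 0.97). The 3 that fell included Fap, a surface protease by which such cells are often defined (-2.42, SE 0.533), with Thy1 (-1.59) and Acta2 (-1.48), all named after their values were seen. Inhba was at 10.36 in the monolayer and 7.74 in spheres. Col11a1, the largest rise of the list, was at 9.96 and 5.00, against an NMG mean of 4.44. The cell line thus carried members of this list as well, while 5 of the 13 were at least 1 log2 unit below NMG on both of its arrays. Other stromal lists were lower. Pericyte and smooth muscle markers had 0 of 13 higher and 9 lower (median -1.48), with Myh11, Abcc9, Cnn1 and Mylk at -3.29, -2.44, -2.19 and -1.97. Of 14 blood endothelium markers, 0 were higher and 10 lower (median -1.20), and Pecam1, Cldn5, Vwf and Kdr were at -2.72, -2.55, -2.10 and -2.05. The call of Vwf was lost on leaving out any single NMG array (adjusted p = 0.0562 to 0.0718, limma) and with PT of the second date batch only. PT replicate 5 had an endothelial list mean of 7.79, against 5.16 to 6.77 in the other PT and 7.60 to 7.88 in NMG, and without it 12 of 14 were lower. Lymphatic endothelium had 0 of 7 higher and 4 lower (median -1.50), led by Reln (-2.84), Lyve1 (-2.39), Sema3d (-1.73) and Mmrn1 (-1.50).

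Antigen presentation fell. All 11 MHC class II genes were lower in every PT array than in every NMG array (median -3.03). H2-Ab1 was at 6.64, 9.33 and 10.26 in PT, against 12.23, 12.28 and 12.23 in NMG (difference -3.45, SE 0.583), and H2-Ob, H2-Eb1 and H2-Oa fell by 4.85, 3.47 and 3.27. These genes are mainly those of B cells, macrophages and dendritic cells, and all 10 B lymphocyte markers (median -3.37) and 12 T and NK markers (median -2.40) were lower too. Their part in the fall was not tested. Of 13 MHC class I genes, 1 was higher and 11 lower (median -0.95). Tap2 and Tap1, the peptide transporter, fell by 1.99 and 1.20, Psmb9, an immunoproteasome subunit, by 1.60, and Nlrc5, the activator of class I genes, by 1.67. Nlrc5 was at 3.98 and 5.14 in the cell line, 4.67 to 8.06 in PT and 8.77 to 9.01 in NMG. The single rise was that of Erap1, a peptide-trimming protease (0.62, SE 0.185), named after its value was seen. Of 15 complement genes, 2 were higher and 8 lower (median -1.89). Cd55, which protects cells from complement, fell by 3.33 (SE 0.353), the C1 proteases C1s1 and C1ra by 2.91 and 2.59, and Cfb by 2.56. The rises, named after their values were seen, were C3ar1 (1.81), a receptor for a C3 fragment, and the protease Masp1 (0.83).

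**Figure D5:**
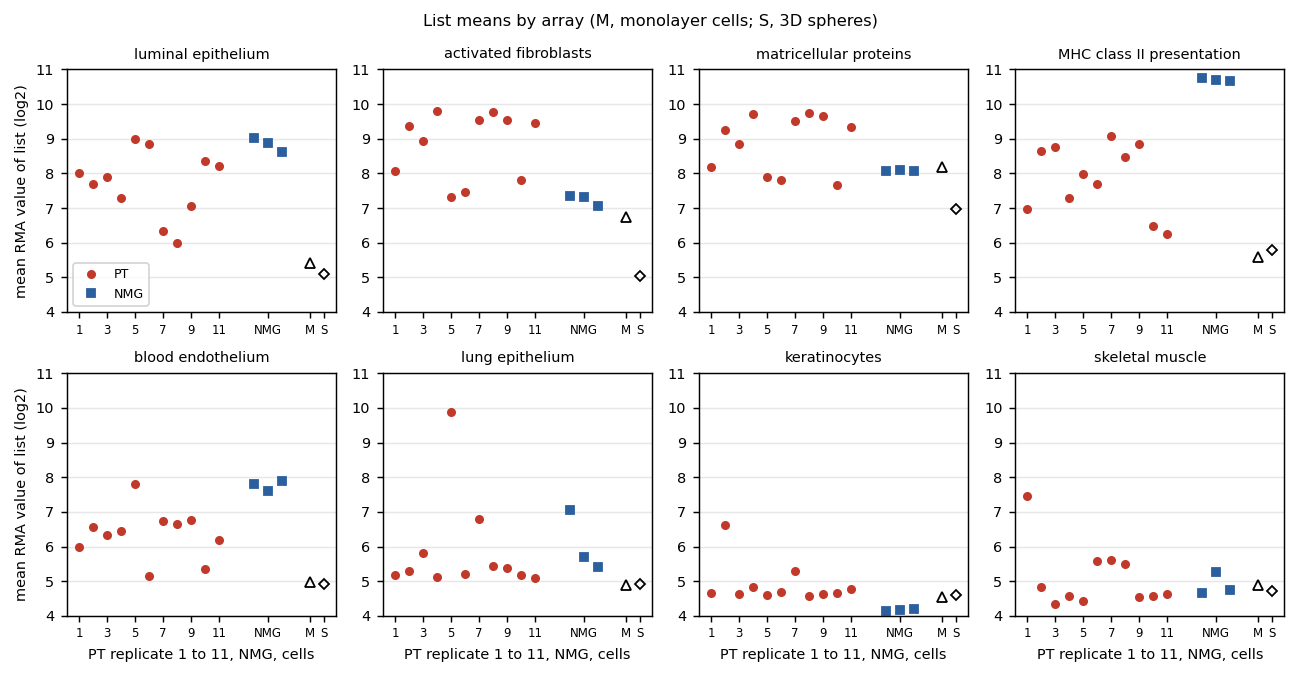
Mean RMA value (log2) of 8 gene lists on each PT, NMG, monolayer (M) and sphere (S) array, with PT replicates 1 to 11 in order along the x axis. The MHC class II mean is 6.25 to 9.09 in PT and 10.67 to 10.76 in NMG, and single tumors stand out for lung epithelium (replicate 5), keratinocytes (replicate 2) and skeletal muscle (replicate 1).

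Myeloid lists were mixed, beside 26.7% of all genes higher and 21.0% lower. Of 17 macrophage markers, 3 were higher and 9 lower (median -1.01). The largest fall was that of Timd4, a receptor of resident macrophages, at 3.33 to 6.21 in PT, against 9.07 to 9.76 in NMG (difference -4.86, SE 0.561). Spic, a transcription factor of red pulp macrophages, was at -2.87 and Lyve1, also a lymphatic marker, at -2.39. Ccr2, a receptor of monocytes, was at -2.25. The rises, named after their values were seen, were Trem2 (1.66, SE 0.197), Arg1 (1.17, SE 0.414) and Cx3cr1 (0.63, SE 0.207). Trem2 was at 6.76 to 7.53 in PT, against 5.24 to 5.76 in NMG, and at 5.41 and 5.72 in the cell line. Neutrophil markers had 0 of 10 higher and 5 lower (median -0.93), with Ltf, S100a8, S100a9 and Ngp at -2.82, -2.59, -2.51 and -1.96. Without NMG replicate 1 S100a9 was at -2.25 and not called. Mast cell markers had 1 of 10 higher and 6 lower (median -0.47). The proteases Cma1, Cpa3 and Mcpt4 fell by 3.04, 2.98 and 1.73, while Hdc, which makes histamine, rose by 1.37 (SE 0.301) and was at 6.67 and 6.05 in the cell line, inside or near the PT range of 6.12 to 8.00.

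Genes of fat and of metabolism led the falls, where 21.0% of all genes were lower and 26.7% higher. All 12 adipocyte markers were lower (median -4.38), and 4 of the 15 largest falls belonged to the adipocyte or B lymphocyte lists. Of the others, Thrsp, a regulator of fat synthesis, was at 5.06, 5.84 and 6.12 in PT, against 13.36, 13.29 and 13.69 in NMG (difference -7.73, SE 0.38, adjusted p = 3.04e-14). Dgat2, which makes triglyceride, fell by 5.69 (SE 0.263), the carboxylesterase Ces1f by 6.21 (SE 0.178), the epoxide hydrolase Ephx2 by 6.10 (SE 0.32), the amylase Amy1 by 5.78 (SE 0.308) and the plasma protein Orm1 by 6.31 (SE 0.332). Cell line values of these genes were between 2.87 and 7.54. Ighm, the immunoglobulin M heavy chain, fell by 5.61 (SE 0.963). Of 25 genes of retinoid and xenobiotic metabolism, 4 were higher and 17 lower (median -2.85). Cyp2e1, which oxidises ethanol and other small molecules, was at 4.37, 5.67 and 8.46 in PT, against 12.26, 12.40 and 12.62 in NMG (difference -6.40, SE 0.751). Rbp4, the carrier of retinol, fell by 6.09 (SE 0.371). Ces1d was at 4.06 to 5.51 in 10 PT and 9.80 in replicate 5, against 10.39 to 11.27 in NMG, and Aldh1a7 was at 3.93 to 4.38 in 10 PT and 8.19 in replicate 5, against 9.78 to 10.52 in NMG. Without replicate 5 their differences were -6.03 and -5.93, and the list median was -3.09. The 4 rises, named after their values were seen, were Nqo1, a quinone reductase (2.67, SE 0.276), Aldh1a3, which makes retinoic acid (2.14, SE 0.644), Rdh10, which makes retinal (1.24, SE 0.25), and Adh7 (0.78, SE 0.172). Nqo1 was at 7.06 to 8.29 in PT, against 4.75 to 5.04 in NMG, and at 7.98 and 6.82 in the cell line, whereas Aldh1a3 was at 7.0 to 10.90 in PT, against 5.98 to 6.30 in NMG, and at 5.83 and 4.25.

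Epithelial lists were lower in part, where 26.7% of all genes were higher and 21.0% lower. Of 19 luminal markers, 0 were higher and 7 lower (median -1.0). Those that fell included the hormone receptors Esr1 (-3.60, SE 0.307) and Pgr (-4.09, SE 0.20), the transcription factor Gata3 (-5.07, SE 0.261) and Prom1 (-2.78, SE 0.43). Pgr was at 4.08 to 4.90 in PT, against 8.13 to 9.25 in NMG. Others were not called and varied among tumors, such as Elf5, a transcription factor of luminal progenitors chosen after its values were seen, at 5.21, 10.05 and 12.37 in PT, against 7.46 to 9.54 in NMG (adjusted p = 0.472). The list mean spread widely, at 5.98 to 8.99 in PT, against 8.61 to 9.01 in NMG and 5.42 and 5.11 in the cell line. Of 15 basal markers, 1 was higher and 6 lower (median -0.10, or 0.06 with arrays centred on their medians). Itgb4, the integrin of hemidesmosomes, rose by 1.58 (SE 0.20), and Myh11, Trp63 and Cnn1 fell by 3.29, 2.41 and 2.19. Myh11, Cnn1 and Acta2, which also fell, are on the pericyte and smooth muscle list too. Their falls are thus counted in both lists and do not tell basal cells from smooth muscle. Milk protein genes had 0 of 12 higher and 7 lower (median -1.39). Glycam1, made by milk-producing epithelium and by lymph node vessels, fell by 6.16 (SE 1.24), with PT between 3.43 and 10.34, against 12.97, 12.50 and 12.57 in NMG. Muc15, Csn3 and Csn1s1 fell by 4.30, 3.73 and 2.47, and Csn1s1 was at 10.61, 7.12 and 3.27 in the NMG replicates. Without NMG replicate 1 it was at -0.67 and not called.

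Wnt pathway genes, which shape the mammary gland, had 8 of 35 higher and 9 lower (median 0.10), near the 26.7% and 21.0% of all genes, so the members below are given singly and not as a shift of the list. Among the ligands, Wnt5a was at 3.73 to 5.22 in PT, against 6.28 to 7.08 in NMG (difference -2.18, SE 0.255), and Wnt4, a target of progesterone in the gland, was at 4.85 to 6.49 in PT, against 7.51 to 8.30 in NMG (difference -2.12, SE 0.234). The R-spondins, which strengthen Wnt signals, moved apart. Rspo1 fell by 3.82 (SE 0.659) and Rspo3 rose by 2.58 (SE 0.709), with 4.23, 5.73 and 9.91 in PT, against 3.23, 3.24 and 3.52 in NMG. The highest Rspo3 value was that of PT replicate 10, and the cell line was at 3.55 and 3.52.

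Regulatory lists are set against the 26.7% of all genes that were higher and the 21.0% that were lower. Polycomb and DNA methylation genes had 7 of 22 higher and 3 lower (median 0.13). Hells, a chromatin remodeler, Cbx2, a Polycomb reader, and Uhrf1, which guides maintenance methylation, rose by 1.97, 1.23 and 1.18, and without NMG replicate 3 Uhrf1 was at 0.55 and not called. Those that fell were Cbx7 (-1.12), Jarid2 (-1.05) and Ezh1 (-0.81), the last 2 named after their values were seen. Circadian clock genes had 3 of 17 higher and 4 lower (median 0.07). Clock, a core activator, was at 9.17 to 10.56 in PT, against 7.48 to 7.75 in NMG (difference 2.11, SE 0.191), and at 9.64 and 9.57 in the cell line. Bhlhe40 and Bhlhe41 rose by 1.03 and 0.41, and the nuclear receptor Rora and the output factors Hlf and Dbp fell by 1.70, 1.61 and 1.61, with Cry2 at -0.88. Without NMG replicate 3 Dbp was at -0.90 and not called. Bhlhe40, Bhlhe41 and Cry2 were named after their values were seen. CACGTG, the E-box letters, was present in 4 of 15 clock promoters (26.7%) and 8.09% of all, and the D-box letters TTATGTAA or TTACGTAA in 1 of 15 (6.67%) and 1.23%. Immediate early genes, which respond within minutes to growth factors and handling, had 10 of 21 higher and 4 lower (median 0.46). Fosl1 rose by 1.66 (SE 0.586), and Btg2, Zfp36 and Klf2 fell by 1.75, 1.47 and 1.36, with Egr2 at -1.24, named after its value was seen. The call of Fosl1 was lost on leaving out any single NMG array (adjusted p = 0.0615 to 0.0701, limma) and with PT of the second date batch only. The list of p53 targets and CDK inhibitors had 0 of 18 higher and 5 lower (median -0.03, or 0.12 with arrays centred on their medians). Ccng1, Phlda3, Trp53inp1 and Cdkn2c fell by 1.82, 1.48, 1.42 and 1.23, and Sesn1, named after its value was seen, by 0.69.

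Genes of other lineages and of early development moved in both directions, again beside 26.7% of all genes higher and 21.0% lower. Of 27 germ cell genes, 4 were higher and 4 lower (median 0.06). The meiotic gene Sycp3 fell by 3.10 (SE 0.244), and the homeobox gene Rhox5, expressed in many mouse tumors, rose by 0.74 (SE 0.292). The other rises were Tdrd9 (0.51), Tex19.1 (0.43) and Tdrd1 (0.36), and the other falls were Ddx43 (-0.54), Stag3 (-0.53) and Rhox9 (-0.27), of which the Tdrd genes, Tex19.1 and Rhox9 were named after their values were seen. Of 17 oncofetal and imprinted genes, 4 were higher and 3 lower (median 0.11). Hmga2, a chromatin protein of the embryo, rose by 2.74 (SE 0.854), and its PT values of 5.34 to 9.35 lay above NMG (4.50 to 5.30) and below the sphere value (10.46). Its call was lost without NMG replicate 1 (2.52, adjusted p = 0.0536, limma). Mest (1.06), Plagl1 (1.04) and Igf2bp1 (0.57) also rose and were named after their values were seen. The imprinted genes Ndn, Cdkn1c and Grb10 fell by 2.66, 2.21 and 1.50. Of 21 neuronal genes, 4 were higher and 2 lower (median 0.08), with Ina, Ncam1 and Syp at 1.72, 1.60 and 0.62 and Stmn2 at -1.63. Nefl (0.43) and Syt1 (-0.56) were named after their values were seen. Markers of Schwann cells had 1 of 10 higher and 2 lower (median 0.09). S100b rose by 2.16 (SE 0.50) and was at 7.61 and 6.76 in the cell line, and Mbp and Drp2 fell by 0.56 and 0.42. The call of Rhox5 was lost under 11 alternatives, that of Mbp under 13, that of Ncam1 under 5 and that of Drp2 under 4, each time including NMG replicate 1 left out. Leaving out NMG replicate 2 or 3 also ended the calls of Rhox5, Mbp and Ncam1.

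Single PT arrays stood out for markers of skeletal muscle, keratinocytes and lung epithelium. The counts below stand beside 26.7% of all genes higher and 21.0% lower. Of 14 skeletal muscle markers, 0 were higher and 1, Myl1, lower (-3.08, SE 0.612), with a list median of 0.43. PT replicate 1 had a list mean of 7.47, against 4.35 to 5.62 in the other PT and 4.65 to 5.26 in NMG. Of 12 keratinocyte markers, Calml3 (3.02) and Krt77 (0.33, SE 0.127) were higher and 0 lower, with a list median of 0.57. PT replicate 2 had a list mean of 6.63, against 4.58 to 5.28 in the other PT and 4.14 to 4.21 in NMG, so every PT list mean lay above every NMG list mean. The call of Krt77 was lost under 8 alternatives, among them leaving out PT replicate 2 (adjusted p = 0.0521) or any single NMG array (0.0551 to 0.191, limma). Of 17 lung epithelium markers, 0 were higher and 2 lower (median -0.03, or 0.13 with arrays centred on their medians), Napsa by 2.66 and Lyz1 by 1.10. The surfactant gene Sftpc, chosen after its values were seen, was at 4.41 to 13.17 in PT, against 4.98 to 10.55 in NMG, so that lung transcripts were present in an NMG array too. Erythrocyte markers (0 of 4, median -0.02, or 0.14 with arrays centred on their medians) and the listed Y-linked genes (0 of 3, median 0.13) were not called. Of all 9 measured genes placed on chromosome Y, 4 were called higher and 0 lower (median 0.26). Of the 198 named genes, all kept their call and direction without PT replicate 5.

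Several lists and genes placed the tumors in a similar order. Luminal list means were 8.99, 8.85, 8.35 and 8.20 in PT replicates 5, 6, 10 and 11, and 6.34 and 5.98 in replicates 7 and 8. The lung epithelium list mean was 9.89 in replicate 5 and 5.10 to 5.21 in replicates 6, 10 and 11, and the luminal list holds general epithelial genes such as Epcam, Cdh1 and Krt8, so the place of replicate 5 in this order moved with lung markers, whose part was not tested. Activated fibroblast list means were 7.32, 7.47 and 7.82 in replicates 5, 6 and 10, and 9.55, 9.78, 9.55 and 9.81 in replicates 7, 8, 9 and 4. Tumors high for one list were thus mostly low for the other, with replicate 11 high for both (9.46 for activated fibroblasts). Single genes are given for the same tumors. Cnmd was at 11.46, 11.15 and 12.18 in replicates 5, 6 and 10, and at 5.72 and 4.93 in replicates 7 and 8. Fbp2 was at 10.33, 11.33 and 12.27 in replicates 5, 6 and 10, and at 7.26 and 6.61 in replicates 7 and 8. Both genes were thus high where the luminal list was high. Mmp13 and Loxl4 ran the other way. Mmp13 was at 4.75, 3.51 and 3.89 in replicates 5, 6 and 10, and at 9.97 and 10.03 in replicates 7 and 8. Loxl4 was at 4.68, 4.63 and 5.15 in replicates 5, 6 and 10, and at 8.52 and 9.14 in replicates 7 and 8. The cell line stood nearer to replicates 7 and 8 for Loxl4 (9.25 and 8.61), Ptgs2 (10.92 and 10.82) and the luminal list (5.42 and 5.11), and for Cnmd (2.74 and 3.02), but not for Mmp13 (3.12 and 3.03). These tumors were named for their values, so no test was made between them.

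Neighbouring genes were read together as well, and the genes named here for the first time were chosen after their values were seen. With 18143 genes placed in order along the chromosomes, the runs of 11 neighbours with the highest median differences were on chromosomes 16 (1.55), X (1.34) and 13 (1.28). The run on chromosome 16 held Tfrc, the transferrin receptor, at 11.15 to 13.19 in PT, against 8.59 to 8.96 in NMG (difference 3.29, SE 0.437), and at 11.72 and 11.41 in the cell line. It ended with the mucin genes Muc4 and Muc20, and 8 of its 11 genes were called higher. The run on chromosome X held Col4a6 and Col4a5, which share a start region, and reached to Capn6, with Ammecr1 between them (2.69, SE 0.256). Its cell line median was 1.29 above NMG, and 1 gene, Chrdl1, fell (-2.31, SE 0.334). The run on chromosome 13 held Fbp2 beside Fbp1, the liver isoform of the same enzyme (2.62, SE 0.525), and Ptch1, the Hedgehog receptor. The lowest runs held gene families of immune cells, in which neighbours share sequence as well as place. They were the MHC class II region on chromosome 17 (-2.70), the run on chromosome 6 (-2.35) and the run on chromosome 8 (-2.32). On chromosome 6 the 8 Gimap genes fell, and the other 3 genes, Repin1, Zfp775 and AI854703, were called higher. On chromosome 8 the Cd209 genes lay with Fcer2a, an immunoglobulin E receptor, Retn, a hormone gene of adipocytes, and others, and 9 of the 11 genes were lower. Cd209b was at 3.28 to 5.46 in PT, against 8.77 to 10.15 in NMG (difference -5.14, SE 0.492), and Gimap8 was at 4.75 to 8.50 in PT, against 10.29 to 10.57 in NMG (difference -3.78, SE 0.558).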

How the data were processed

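RNA of whole tissue and of cultured cells had been measured by the authors on Affymetrix mouse genome arrays with 45101 probe sets. Per the labels and methods, the authors deposited log2 values from RMA as run in Partek (6.6). RMA subtracts a background model, gives all arrays the same quantiles and fits 1 value per probe set. The number of arrays limits the precision. All 28 value columns were used, and 0 value columns were left out. Probe sets with 1 gene symbol numbered 34958, those with several 932 and those with none listed 9211. After 13 control probe sets had been left out, each of 18193 genes was read from its probe set of highest mean in the 26 tissue arrays. No filter on low values was set. Some genes are not reported here.

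A limma (3.58.1, R 4.3.3) fit with 1 mean for each of PT, LungMets, NMG and NL used the 26 tissue arrays without covariates, and tests were two-sided. Genes over 2-fold higher or lower had a log2 difference beyond 1 as well. The same fit gave LungMets against NL, and a fit of the 11 PT arrays gave the date batches. On simulated data of 18193 genes for PT against NMG, 97 of 100 genes shifted by 2 log2 units were called, 75 of 100 shifted by 1 unit, and 5 of 17993 unshifted genes. The simulated noise was normal and independent, with no date batch, no shared mice and few genes shifted. These counts check the fit and do not give the rate of false calls in the deposited data.

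Named genes were the 15 largest rises and falls among called genes with all PT outside the NMG range, the 10, 10 and 8 largest of 3 cell line classes, and up to 4 called members of each list by size, with adipocyte and lymphocyte markers only counted. Other genes are marked as chosen after their values were seen. The 45 lists (25 of processes and 20 of cell type markers, 765 genes analysed) and the named-gene rule were chosen with earlier results of these data known. No set test was run. Alternatives changed the probe set, the filter, the normalization, the block, the weights, the arrays fitted, the test and the cell line margin. Promoter sequences came from RefSeq (GRCm38.p6).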

Additional observations from a re-analysis of the deposited data

How the results depend on the processing

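With 3 NMG arrays on a date of their own, NMG limited the precision. Leaving out 1 PT or NMG replicate gave 3562 to 5044 genes higher and 3200 to 3868 lower, 1017 to 1309 over 2-fold higher and 1749 to 1945 over 2-fold lower. The cell line classes then held 374 to 481 genes (both high), 51 to 120 (none above), 1318 to 1381 (both low) and 14 to 37 (none below), 744 to 1017 over 2-fold higher genes were higher in LungMets, and 0 to 2 genes differed between the PT date batches. The lowest counts of genes higher, lower and in the classes none above and none below came without NMG replicate 3. With only genes above the median level there were 3085 higher, 2256 lower, 1035 over 2-fold lower, 747 both low and 13 none below. With arrays centred on their medians there were 7495 higher and 775 both high. A cell line margin of 0.5 gave 658 both high, and a margin of 2 gave 96 both high and 793 both low. The monolayer alone gave 707 both high and 54 none below, and spheres alone 326 none above and 80 none below. The cause of these shifts was not tested beyond what each setting itself changes.

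PT and NMG share label numbers 1 to 3, but the NMG mice had received no cells, so a shared number does not mean a shared mouse. The deviations of arrays with the same number correlated at 0.0594, -0.047 and -0.0495. With 3 NMG arrays these values cannot decide whether samples were paired in another way. With the number as a replicate block there were 4734 genes higher, 3838 lower, and 47 in the class none below in place of 30. PT of the first date batch alone gave 4376 higher and 3534 lower, and PT of the second 4188 and 3487. Plain ANOVA on the 14 arrays, as the methods name it, gave 4547 and 3665, and array weights 6299 and 4530. Date batch as a random block had a correlation of -0.08 and gave 5806 and 4256. Of 198 named genes, 176 kept their call and sign under every one of the 27 alternatives that held them. The alternative with only genes above the median level left some named genes out. Of 5284 pairs of gene and alternative, 75 lost the call and 1 turned, Ido1 at 0.14 without NMG replicate 3 (its leave-one-out range was -3.25 to 0.14). Of 3643 pairs of list result and alternative, 174 moved.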
